A study of Mus musculus with 12 samples.

Results

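The regions described here were closed, as far as peak calls show it, in resting natural killer (NK) cells and open after stimulation in both genotypes: 674 of 45091 regions called in 2 or more of 12 ATAC-seq libraries from mouse spleen. ATAC-seq inserts adapters into accessible DNA with a transposase, and a peak interval is a stretch where the insertions pile up over the background of the same library. The 4 groups, with 3 libraries each, were KO NK cells treated with IL-12/18 (KO stimulated), WT NK cells treated with IL-12/18 (WT stimulated), KO NK cells without the cytokines (KO control) and WT NK cells without the cytokines (WT control). KO stands for NK cells that lack Regnase-1 (Reg-1ΔNK) and WT for the Reg-1 fl/fl NK cells they were compared with. The driver of the deletion, the age of the mice, the cytokine doses and the length of the treatment are not given in the sources used here. Each library was made from 100000 NK cells, and the labels do not say whether libraries of a group came from separate animals, so a p-value below measures the spread between these libraries, which may be technical.

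Members were chosen by the calls themselves. In each library the 35110 strongest distinct intervals were kept, which is the length of the shortest list, and intervals of the 12 equal lists that overlapped by 1 base or more became 1 region. A de novo region is one called in 6 of 6 stimulated equal lists that overlaps no deposited interval of any strength in the 6 control libraries. Of the 45091 regions, 1624 (3.6%) were called in all stimulated equal lists and in no control equal list, and the 674 de novo regions (1.49%) are those among them that also had no weaker control interval. Their presence with stimulation and absence without it is therefore the selection rule and not a result. Their position and sequence were not used by the rule. Width was not a criterion either, but a wider region is more likely to overlap a control interval and be dropped. The rule treated KO and WT alike but needed a call in every library of both, so regions weak in 1 genotype were removed. Each comparison of KO with WT ranks below therefore holds only among regions called in both. In bulk samples like these, an interval in fewer cells and a less accessible interval in each cell cannot be told apart.

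IL-12 and IL-18 are inflammatory cytokines that act together on NK cells. IL-12 signals through JAK kinases to STAT4, and IL-18 signals through MyD88 to NF-kB and AP-1, and the pair is a classical inducer of interferon-gamma. Regnase-1, encoded by Zc3h12a, is an endoribonuclease that degrades mRNAs of inflammatory genes. Regions that gain accessibility during activation are usually distal elements bound by such inducible factors, whereas promoters of expressed genes tend to be open already.

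A promoter is the one place where the bases under these regions could be read, because the RefSeq table on build GRCm38.p6 (mm10) gives the bases around annotated start sites. Only 6 de novo regions covered a whole 300-base promoter window, and their windows are shown here because 5 of the 6 hold the same AP-1 motif, TGANTCA, while the window of the immune enzyme gene Acod1 does not. All windows lie on the + strand and run 5′ to 3′, and their last 50 bases begin at the start site. Capitals mark the AP-1 match, or in Acod1 the ETS match. They belong to Mmp10 (chr9:7502092-7502391), which encodes the matrix protease stromelysin-2, to Ugt1a6a (chr1:88134559-88134858), which encodes a glucuronosyltransferase, to Acod1 (chr14:103046762-103047061), whose enzyme makes itaconate, and to the lncRNA genes Gm30986 (chr2:131744086-131744385), Gm36199 (chr17:29434568-29434867) and A530046M15Rik (chr13:15806993-15807292).
Mmp10: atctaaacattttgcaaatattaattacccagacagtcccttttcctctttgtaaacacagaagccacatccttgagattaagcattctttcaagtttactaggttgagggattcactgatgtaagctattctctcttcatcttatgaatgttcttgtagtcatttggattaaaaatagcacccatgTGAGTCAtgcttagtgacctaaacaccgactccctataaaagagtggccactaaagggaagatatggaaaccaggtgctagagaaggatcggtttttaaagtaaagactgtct
Ugt1a6a: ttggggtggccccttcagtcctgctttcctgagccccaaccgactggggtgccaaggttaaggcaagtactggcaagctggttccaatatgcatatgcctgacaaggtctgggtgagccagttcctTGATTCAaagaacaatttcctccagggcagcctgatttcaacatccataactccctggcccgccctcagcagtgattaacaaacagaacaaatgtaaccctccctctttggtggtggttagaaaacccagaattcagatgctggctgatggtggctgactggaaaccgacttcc
Gm30986: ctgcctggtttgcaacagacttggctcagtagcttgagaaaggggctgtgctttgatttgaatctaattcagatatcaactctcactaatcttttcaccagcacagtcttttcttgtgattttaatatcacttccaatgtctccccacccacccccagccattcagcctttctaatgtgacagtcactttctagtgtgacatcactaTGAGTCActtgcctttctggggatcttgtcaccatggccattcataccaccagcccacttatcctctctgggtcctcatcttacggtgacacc
Gm36199: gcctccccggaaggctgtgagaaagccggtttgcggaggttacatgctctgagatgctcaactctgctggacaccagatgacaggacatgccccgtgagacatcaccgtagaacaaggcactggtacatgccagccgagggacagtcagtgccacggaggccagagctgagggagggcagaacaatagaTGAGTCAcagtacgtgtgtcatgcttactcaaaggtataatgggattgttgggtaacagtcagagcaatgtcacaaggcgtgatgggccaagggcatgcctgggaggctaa
A530046M15Rik: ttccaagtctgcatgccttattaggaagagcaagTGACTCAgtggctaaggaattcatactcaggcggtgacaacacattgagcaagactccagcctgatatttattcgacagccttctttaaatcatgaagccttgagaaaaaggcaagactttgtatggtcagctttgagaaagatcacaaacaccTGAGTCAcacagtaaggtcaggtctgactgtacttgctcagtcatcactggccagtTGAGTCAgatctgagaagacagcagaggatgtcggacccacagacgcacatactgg
Acod1: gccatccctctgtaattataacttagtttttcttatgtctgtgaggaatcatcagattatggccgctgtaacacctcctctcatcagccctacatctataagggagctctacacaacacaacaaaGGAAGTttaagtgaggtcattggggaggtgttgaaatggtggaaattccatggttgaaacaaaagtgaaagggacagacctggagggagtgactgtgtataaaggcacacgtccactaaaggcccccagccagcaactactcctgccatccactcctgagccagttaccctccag

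The AP-1 match stood at position −63 from the start site in Mmp10, −43 in Gm30986 and −61 in Gm36199, given for the first base of the match, with −1 the base just before the start. The Gm36199 region also covered the window of a second start site, from which the same match stood at −79. In A530046M15Rik 3 matches were found, at positions −216, −62 and −6. The match in Ugt1a6a, at position −124, has the form TGATTCA and overlaps a STAT motif match (TTCNNNGAA) that starts at −121. Acod1 has no AP-1 match in the window, and its ETS match (GGAAGT) starts at −125. The ETS letters also matched on the opposite strand (ACTTCC) in Ugt1a6a, at position 45, and in Gm30986, at −121, so ETS does not set Acod1 apart. The motif was found in 5 of the 6 de novo regions that cover a window, in 6 of 16 gained regions that had a control interval (37.5%), and in 492 of 8248 regions called in all 12 libraries (5.97%). Across all 32851 promoter windows of the table, 7.81% held AP-1 on either strand, 23.8% held ETS and 8.30% held STAT. With 6 regions the share for the de novo set rests on very few windows, and a match is a string of letters, not a bound site. No window of these 6 regions held the kappaB consensus, the IRF motif, the T-box motif AGGTGTGA, the RUNX motif TGTGGTT, the octamer ATGCAAAT or the CTCF consensus, which were found in 4.51%, 3.44%, 1.28%, 5.27%, 1.74% and 0.557% of all windows. The NFAT letters GGAAAA, found in 23.4% of all windows, matched in the Mmp10 window alone, on the opposite strand.

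Ranks show how strong the Acod1, Mmp10 and Ugt1a6a regions were. A rank is the place of a region's strongest interval in a library's equal list, ordered by the authors' −log10 q, with 1 the strongest and 35110 the weakest. The Acod1 promoter region (chr14:103046354-103047762) ranked 23458, 31574 and 23615 in the KO stimulated libraries, against 21394, 28565 and 21803 in the WT stimulated libraries, so it lay below the middle of every list and the genotypes overlapped. Mmp10 (chr9:7501167-7502461) ranked 15006, 27984 and 22812 in KO stimulated libraries, against 28381, 26486 and 29967 in WT stimulated libraries, and also overlapped. It was the single region with Mmp10 as its nearest gene, whereas Acod1 had 4 such regions, of which 3 were called in all 12 libraries. At Ugt1a6a (chr1:88133829-88135874) the ranks were 12856, 18157 and 18680 in KO stimulated libraries, against 19760, 19802 and 20077 in WT stimulated libraries, and every KO rank was stronger than every WT rank. The summits (strongest points) of this region spanned 1311 bases over the stimulated libraries, so they need not lie in the window shown. Genes of the Ugt1a family share exons, so the region may belong to more than the named transcript.

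**Figure D1:**
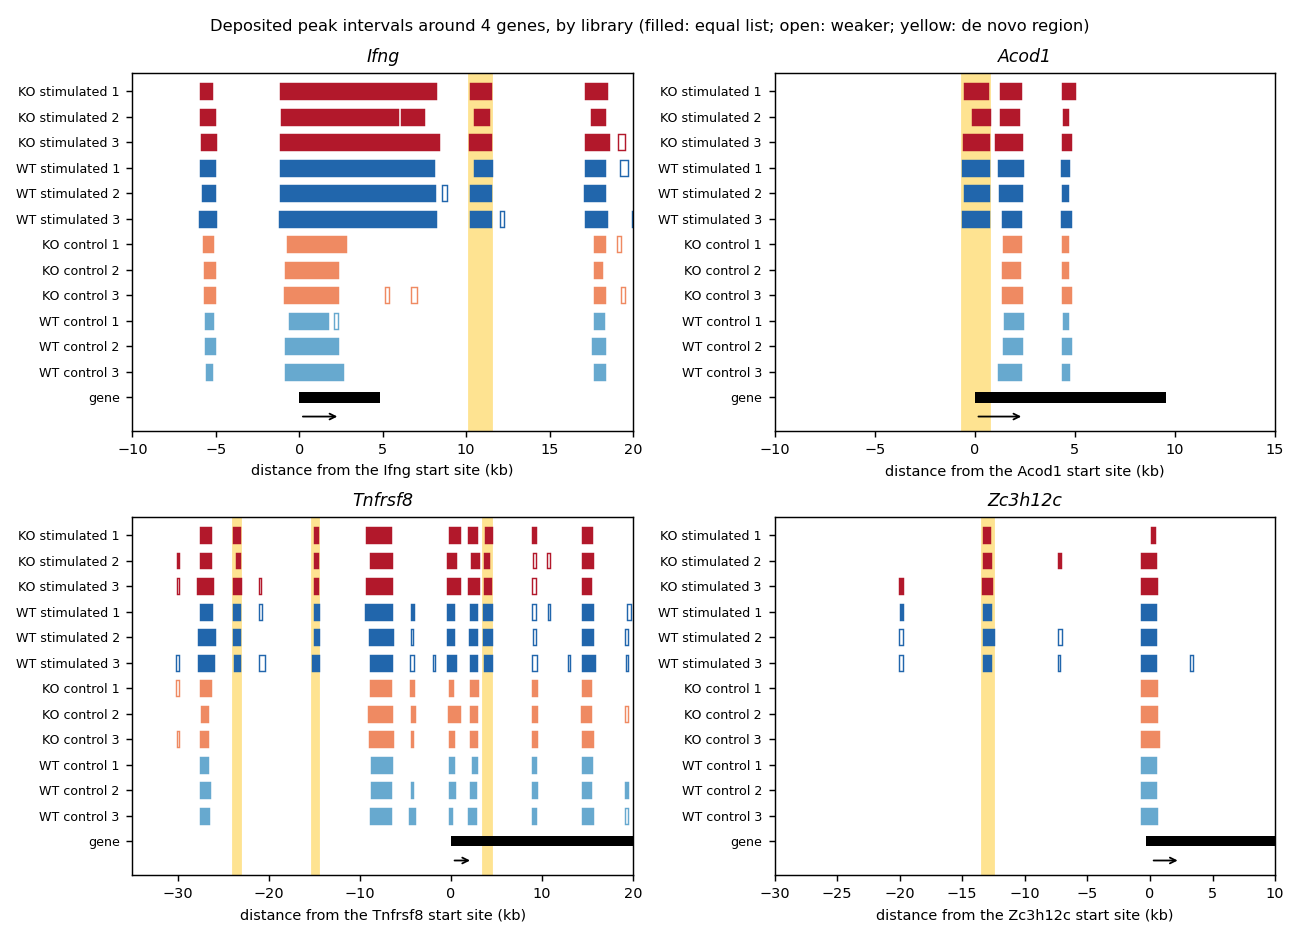
Deposited peak intervals around Ifng, Acod1, Tnfrsf8 and Zc3h12c, with distance from the start site in kb on the x axis and 1 row per library. Filled bars are in the equal list, open bars are weaker intervals, yellow marks the de novo regions, and black is the gene body with an arrow for its direction. The yellow columns hold a bar in each of the 6 stimulated rows and in none of the 6 control rows, while intervals beside them run through all 12 rows.

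Several technical values bear on all counts. The lists held 35110, 42543 and 54303 intervals in KO stimulated libraries, against 56434, 55146 and 63128 in WT stimulated libraries, and the 6 control lists held 42520 to 53440. Read depth is unknown, because the lists give no counts. KO stimulated replicate 1 stood apart: its equal list is its whole list and reaches down to −log10 q 1.31, where the cuts of the other stimulated libraries were 4.60 to 27.05. Without it the same rule gave 940 regions instead of 674. Leaving out any library loosens the rule, and each omission gave at least 681. Zc3h12a itself had 2 intervals in each KO stimulated library, 2, 2 and 1 in the WT stimulated libraries, 2 in each KO control and 3, 3 and 2 in the WT control libraries, and such an interval does not check the deletion. A region called in all 12 libraries lay over 10 of 10 NK cell marker genes, 1 of 6 B cell, 4 of 6 T cell, 3 of 6 myeloid and 2 of 6 erythroid marker genes. No region of any kind lay over 4 of the 6 B cell, 2 of the 6 T cell (Cd4 and Cd8b1), 2 of the 6 myeloid (Lyz2 and Csf1r) and 4 of the 6 erythroid genes, and no marker gene of these 5 lists had a de novo region. The lists had few regions within 50 kb: 49 for NK, 11 for B, 10 for T, 10 for myeloid and 4 for erythroid markers. Over all genes 1.31% of such regions were de novo, so nothing is read from the lack of de novo regions here.

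The de novo regions were distal. Of the 674, 27 (4.01%, Wilson 95% interval 2.77 to 5.77) lay within 1 kb of an end of a protein-coding gene. Away from ends, 305 (45.3%) lay inside a gene body and 342 (50.7%) outside gene bodies. Among the 21076 regions called in all 12 libraries the same shares were 45.7%, 31.3% and 23.0%. The 950 gained regions that did have a weak control interval came close to the de novo set at the gene ends, with 5.37%. Of these, 43.7% lay outside gene bodies and away from ends. Counted with those near ends, regions outside gene bodies were 52.1% of the de novo set, 45.7% of the 950 and 24.2% of regions called in all 12. Shares outside gene bodies given further below use this count. The 108 regions lost by the mirrored rule, called in all 6 controls with no stimulated interval, had 2.78% at gene ends. Both changing sets were thus far from gene ends, so this position was not particular to the regions gained.

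**Figure D2:**
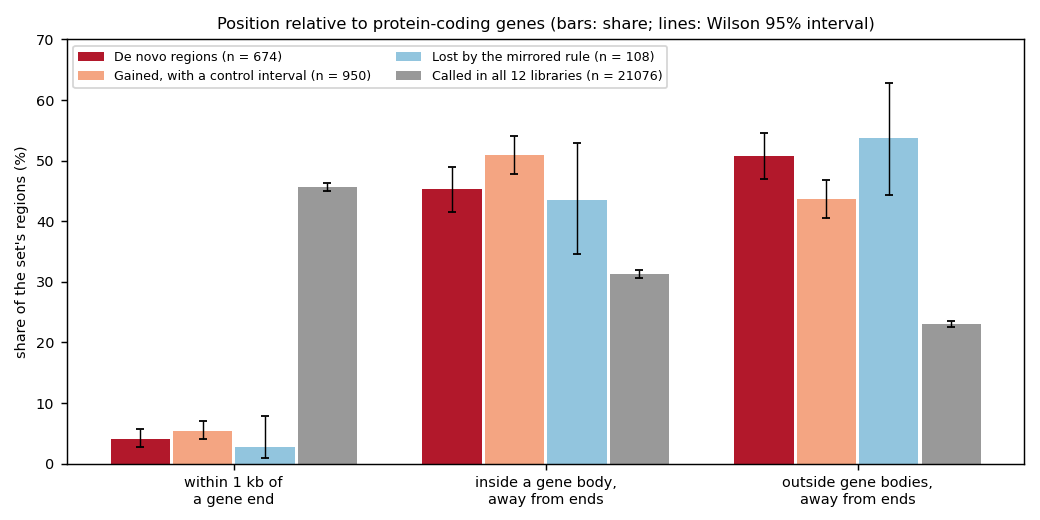
Share of regions (y axis, percent) within 1 kb of a gene end, inside a gene body away from ends and outside gene bodies away from ends, for 4 sets of regions. Bars are shares and lines are Wilson 95% intervals, which cover counting error only. At gene ends the de novo regions stand at 4.01%, against 45.7% for regions called in all 12 libraries.

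Start sites gave the same picture. On the chromosomes that the start-site table covers, 6 of 650 de novo regions (0.923%, interval 0.424 to 2.00) covered an annotated start, against 2.29% of gained regions with a control interval and 41.2% of regions called in all 12 libraries. Within 1 kb of a start lay 18 (2.77%), and within 10 kb lay 158 (24.3%). A further 183 (28.2%) were more than 50 kb from any start, against 13.0% of regions called in all 12. The median distance to a start was 24.7 kb for de novo regions, 18.0 kb for gained regions with a control interval, 18.4 kb for lost regions and 4.08 kb for regions called in all 12.

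Width moves with position, and de novo regions were narrower. Merged widths join 6 lists for de novo regions and 12 for regions called in all 12. The difference is therefore a description and not a test. The merged width of de novo regions had a median of 923 bases, with quartiles of 752.25 and 1152 and a range of 394 to 2725. Gained regions with a control interval had a median of 1022 bases, lost regions 740.5 and regions called in all 12 libraries 1758. Between those quartiles, 2.97% of 337 de novo regions lay at gene ends, against 2.99% of 435 gained regions with a control interval and 19.1% of 2839 regions called in all 12. The gap to the constant regions was therefore smaller at matched width and remained large. Regions outside gene bodies made up 49.0% of de novo regions in that width range, against 40.8% of regions called in all 12.

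The rule set de novo regions apart from control intervals but not how far apart. The median distance to the nearest deposited control interval was 6.28 kb, from 4 bases to 406 kb. A control interval lay within 1 kb of 64 regions (9.50%). Those named below include Fos (0.146 kb), Tnfrsf8 in its body (0.511 kb), E2f3 (0.627 kb) and the second Tnfsf4 region (0.817 kb). No control interval lay within 10 kb of 260 de novo regions (38.6%). The nearest region called in all 12 libraries was a median of 16.7 kb away. The summits of a region in its 6 libraries spanned a median of 112 bases, against 128 bases both for gained regions with a control interval and for regions called in all 12, and spanned at most 100 bases in 45.0% of de novo regions, against 41.3% and 37.7% in those sets.

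The share of regions that were de novo differed by chromosome. Chromosome 6 held 61, or 2.51% of its regions, chromosome 16 held 34 (2.19%) and chromosome 1 held 64 (2.18%). Chromosome 7 held 25 (0.879%), chromosome X held 6 (0.811%) and chromosome Y held none of its 18 regions. No test was made across chromosomes, which differ in gene density.

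In strength the de novo regions sat in the lower part of the lists. Their median rank percentile, where 100 is the strongest interval and 0 the weakest, was 39.0, 31.5 and 36.9 in KO stimulated libraries and 39.0, 35.7 and 35.7 in WT stimulated libraries. The other regions called in 6 of 6 stimulated libraries had medians between 64.6 and 64.9 in each of these libraries. The median fold over background, the authors' own value per peak, was 5.89, 6.43 and 11.4 in KO stimulated libraries and 14.6, 12.8 and 16.0 in WT stimulated libraries. A fold is relative to the background of its own library, so folds are given per library and not compared between libraries. The rule read the same calls, so this lower strength is a description of the members and not a test.

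**Figure D3:**
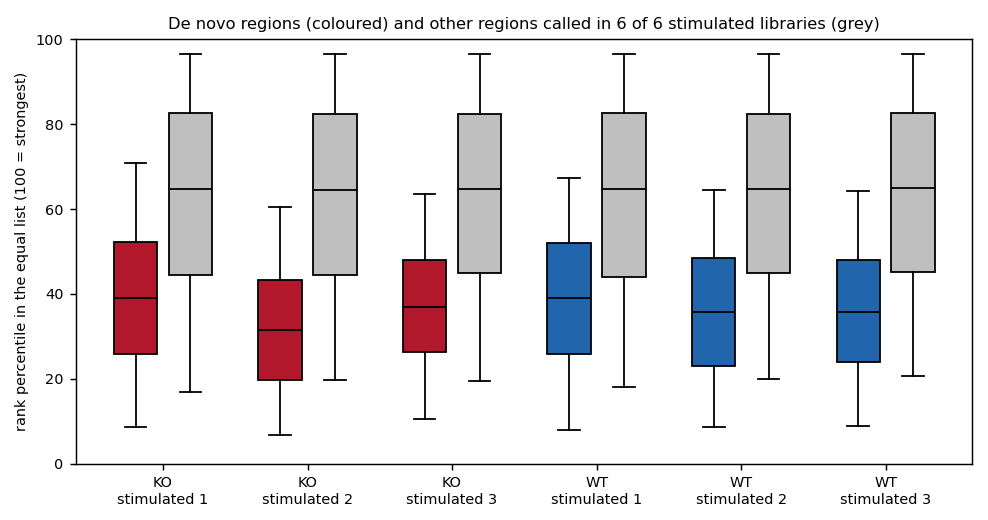
Rank percentile in the equal list (y axis, 100 strongest) of the 674 de novo regions (coloured) and of the other regions called in 6 of 6 stimulated libraries (grey), 1 pair of boxes per library. Boxes span the quartiles, the line is the median and whiskers reach the 5th and the 95th percentile. The de novo medians lie between 31.5 and 39.0, below the grey medians near 64.6 to 64.9 in every library.

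The members at the edge of the rule show how narrow it is. Just inside were regions near Dusp4, Efnb2 and Vamp3, at ranks 35095 and 35087 in WT stimulated replicate 1 and 35066 in KO stimulated replicate 2. Just outside, a region near Itgb1 ranked 35124 in WT stimulated replicate 1 with the same fold, 7.18, as the Dusp4 region, so that position settled the tie. Regions near Obsl1, Plagl2 and Gpr160 missed by a single interval in KO control replicate 1, of fold 2.60 and −log10 q 1.33.

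The strongest de novo region lay in the body of Snd1 (chr6:28512827-28514024), the gene of a Tudor-domain nuclease that takes part in RNA silencing and decay. It ranked 5867, 7114 and 6309 in KO stimulated libraries, against 4995, 4682 and 4494 in WT stimulated libraries, and every KO rank was the weaker. The nearest control interval was 25.2 kb away. The gene given with a region, here and below, is the protein-coding gene whose body is nearest, which states a position and not a target.

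Next in strength, a region (chr17:52076304-52077311) stood 243 kb upstream of Satb1, which encodes a genome organizer of lymphocytes. Its ranks were 5530, 9494 and 7786 in KO stimulated libraries, against 5623, 5879 and 5917 in WT stimulated libraries, and overlapped by the first KO library alone. A region in the body of Rbms1 (chr2:60856662-60858608), an RNA-binding protein gene, ranked 7373, 9145 and 7732 in KO, against 6596, 5559 and 6447 in WT, all weaker in KO. The fourth (chr15:62821373-62822619) was 831 kb from Myc, the growth-promoting transcription factor, at ranks 8140, 7343 and 6424 in KO and 8118, 9064 and 7056 in WT, which overlapped.

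Chst11, which encodes a chondroitin sulfotransferase, had the next region 25.1 kb upstream (chr10:82958055-82959345). It ranked 9484, 10457 and 8372 in KO, against 5378, 6650 and 5980 in WT, again all weaker in KO. The regions in the next 5 places lay in Diaph3, an actin-nucleating formin gene, 52.5 kb upstream of Vstm5, 14.1 kb upstream of the tyrosine phosphatase gene Ptpn5, 10.7 kb upstream of Btg1, an anti-proliferative gene of resting lymphocytes, and 35.4 kb downstream of the mitochondrial ribosomal gene Mrpl39. All 5 had overlapping ranks between the genotypes. Etv6, a repressor of the ETS family, had a region in its body at ranks 16722, 11962 and 10480 in KO, against 6797, 8597 and 8391 in WT. The twelfth, 4.93 kb downstream of the lipid flippase gene Atp8b4, ranked 10449, 9985 and 11474 in KO and 9520, 10108 and 12603 in WT, and lay only 4 bases from a control interval.

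**Figure D4:**
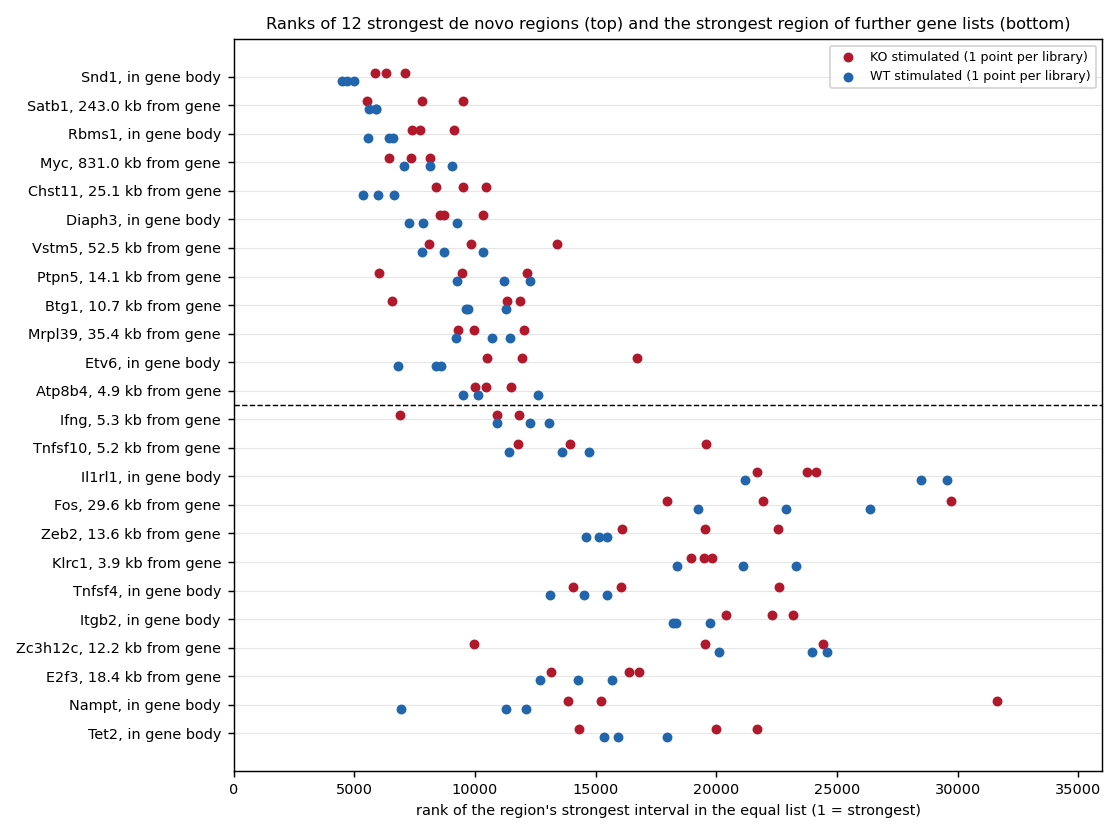
Rank in the equal list (x axis, 1 strongest) of the 12 strongest de novo regions (above the dashed line) and of the strongest de novo region of further gene lists (below it), 1 point per stimulated library, KO in red and WT in blue. Snd1 points lie between 4494 and 7114, and the KO points lie right of all WT points for Snd1, Rbms1, Chst11 and Etv6 above the dashed line and for Zeb2, Itgb2 and Nampt below it.

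De novo regions came mostly 1 to a gene. Within 50 kb of a protein-coding gene lay 539 (80.0%), assigned to 486 genes, and 135 lay farther, up to 846 kb. Of the 486 genes, 445 had 1 region, 34 had 2, and 7 had 3 or more. Of the 674 regions, 115 (17.1%) had another within 50 kb, forming 51 groups of which 9 held at least 3.

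The densest group was 5 regions over 29.4 kb (chr14:60934633-60964006), downstream of and reaching into the 3′ end of Tnfrsf19, which encodes the TNF receptor family member TROY. Its strongest region, 27.6 kb downstream, ranked 12740, 14499 and 11755 in KO stimulated libraries, against 15115, 11218 and 12114 in WT stimulated libraries, and the 5 regions all overlapped between genotypes. Of the 11 regions assigned to Tnfrsf19, 2 were called in all 12 libraries. Upstream of Satb1, 4 regions spanned 55.9 kb (chr17:52076304-52132168), 243 to 298 kb from the gene, with mean ranks from 6705 to 16154. The nearest control interval to its strongest member was 71.2 kb away.

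Downstream of Atp8b4 and in its body, 4 regions spanned 56.4 kb, and 2 of these were weaker in every KO library. Tnfrsf8, the gene of the TNF receptor CD30, had 3 regions over 28.4 kb that differed in their genotype pattern. The region in its body (chr4:145310646-145311680) ranked 9142, 16657 and 14090 in KO, against 13618, 13749 and 15437 in WT, which overlapped. The region 14.5 kb upstream ranked 17303, 27804 and 22386 in KO, against 12790, 14877 and 14801 in WT, all weaker in KO. The region 23.0 kb upstream ranked 19693, 20826 and 19207 in KO, against 25009, 23603 and 33440 in WT, all stronger in KO.

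Such opposite patterns within 1 gene also occurred at Nek6, a mitotic kinase gene with 3 regions, where a region in the body (chr2:38523718-38525098) was weaker in every KO library and another in the same body (chr2:38506957-38508067) was stronger in every KO library. Nampt, which encodes the rate-limiting enzyme of NAD salvage, had the same split. Its body region (chr12:32847651-32848596) ranked 31622, 15204 and 13857 in KO, against 6919, 12133 and 11290 in WT. The region 35.0 kb downstream (chr12:32888342-32889293) ranked 10580, 16506 and 17128 in KO, against 26294, 25243 and 22355 in WT. In both Nampt regions the gap was widest for KO stimulated replicate 1, and the remaining KO libraries also lay outside the WT range.

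Lpp, a large gene for a LIM-domain adhesion protein, held 5 de novo regions within its body over 427 kb, with 4 more gained regions that had a control interval among its 38 regions. Rybp, which encodes a subunit of a Polycomb complex, had 3, of which 2 were stronger in every KO library. Tbc1d1, a gene of a Rab regulator of glucose transporter traffic, had 3 in its body, with mean ranks from 24234 to 28443. Near Ets1, a transcription factor gene of NK cell development, 3 regions (chr9:32988994-33034866) stood 231 to 276 kb away with mean ranks from 14796 to 18623.

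Genes with known roles in NK cells and in cytokine signalling were read as 14 lists. Together 34 regions were assigned to 28 of 331 listed genes, which is 1.82% of the 1867 regions assigned to those genes, against 539 of 41209 regions (1.31%) over all genes. Their median mean rank was 21221, against 22823 for all assigned de novo regions. By list the share ran from 0 for the NF-kB pathway to 5.32% for survival and death genes, on 0 to 7 de novo regions a list, and nothing is read from these small counts.

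Among 26 cytokine and chemokine genes, 3 had a de novo region each (3.09% of the list's 97 regions, against 1.31% over all genes). Ifng, the gene of interferon-gamma, had one 5.35 kb downstream of its body (chr10:118451240-118452598), the fourteenth strongest of all 674. It ranked 6877, 10901 and 11835 in KO stimulated libraries, against 13074, 12291 and 10910 in WT stimulated libraries, and the genotypes overlapped. Of the 16 regions assigned to Ifng, 9 were called in all 12 libraries, so most of them were also called without the cytokines. Il22, which encodes a cytokine that acts on epithelium, had a region 19.3 kb downstream (chr10:118229312-118230550) at ranks 22058, 18331 and 21562 in KO, against 18627, 21379 and 19148 in WT. Il12b, the gene of the p40 subunit shared by IL-12 and IL-23, had a region 9.28 kb upstream (chr11:44389949-44390786) at ranks 22086, 31408 and 30902 in KO and 30623, 28488 and 28049 in WT. Iltifb, a duplicated copy of Il22, had its own region 19.5 kb downstream (chr10:118268834-118270089), so reads may have been divided between the copies and the Il22 values are uncertain. The ranks of both Il22 and Il12b overlapped, and the Il12b region was the single region assigned to that gene.

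In 18 cytotoxic genes, Tnfsf10, the gene of the death ligand TRAIL, had a region 5.24 kb upstream at ranks 11773, 19594 and 13928 in KO, against 13598, 14719 and 11431 in WT. That region was 1.41% of the list's 71 regions. The 32 cytokine receptor and JAK-STAT genes had 1.14% of their 176 regions de novo, near the 1.31% over all genes. These were 2 regions in the body of Il1rl1, the gene of the IL-33 receptor ST2. The first (chr1:40412457-40413465) ranked 15849, 22523 and 22004 in KO, against 30265, 26669 and 34277 in WT, all stronger in KO, and the other (chr1:40416910-40417609) overlapped. Of 28 NK receptor genes, Klrc1, which encodes the inhibitory receptor NKG2A, had a region 3.89 kb upstream at ranks 19804, 18935 and 19479 in KO, against 18373, 21092 and 23305 in WT. That region was 0.901% of the list's 111 regions.

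Among 23 checkpoint and costimulation genes, Tnfsf4, the gene of OX40 ligand, had 2 regions, Cd28 had 1 and Tnfsf11, the gene of RANKL, had 1. Together they were 2.94% of the list's 136 regions, against 1.31% over all genes. The Tnfsf4 body region (chr1:161405786-161407042) ranked 22580, 16065 and 14057 in KO and 13129, 15459 and 14535 in WT, which overlapped. The second, 16.0 kb from the gene (chr1:161378005-161379400), ranked 15311, 15043 and 21096 in KO, against 26861, 30032 and 27599 in WT, all stronger in KO. Itgb2, which encodes the beta chain of LFA-1, had 1 region in its body, weaker in every KO library, and was the single gene with any of 22 homing and adhesion genes. That region was 0.877% of the list's 114 regions.

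None of 27 NF-kB pathway genes had a de novo region among their 143 assigned regions, of which 73 were called in all 12 libraries. Of 16 AP-1 family genes with 92 regions (1.09% of them de novo), Fos had a region 29.6 kb upstream at ranks 29744, 21918 and 17939 in KO and 19243, 22897 and 26364 in WT. A control interval lay 0.146 kb from this Fos region. Of 45 NK transcription factor genes, 6 had 7 de novo regions between them (1.79% of 392 regions, against 1.31% over all genes): Zeb2, a factor of terminal NK maturation, Ahr with 2, Runx2, Egr2, Nfatc2 and Ikzf2. The Zeb2 region, 13.6 kb downstream (chr2:44968563-44969937), ranked 19549, 22558 and 16112 in KO, against 14594, 15461 and 15154 in WT, all weaker in KO. The weakest, near Ikzf2, had a mean rank of 30506.

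Of 16 RNA decay genes, Zc3h12c, a paralog of Regnase-1 known as Regnase-3, had a region 12.2 kb upstream (chr9:52180881-52181797). It ranked 9975, 24438 and 19517 in KO, against 20099, 24577 and 23946 in WT, which overlapped at KO stimulated replicate 2. Elavl1, the gene of the mRNA-stabilizing protein HuR, had a body region at ranks 24332, 24399 and 26865 in KO, against 23642, 20642 and 20455 in WT, all weaker in KO. These 2 regions were 3.28% of the 61 regions of the RNA decay list, against 1.31% over all genes. Among 18 survival and death genes, Pmaip1, which encodes the BH3-only protein NOXA, had 2 regions, and the A1 genes Bcl2a1d and Bcl2a1b had 1 each. De novo regions were 5.32% of this list's 94 regions. The 2 A1 genes are near-identical copies, so the reads of their regions may have been divided between them and their values are uncertain.

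The remaining lists gave 1 of 20 cell cycle and MYC genes (E2f3, a cell cycle transcription factor gene, 18.4 kb upstream) and 1 of 21 metabolic genes (Nampt). De novo regions were 0.909% of the 110 cell cycle and MYC regions and 1.61% of the 124 metabolic ones, against 1.31% over all genes. Among 19 chromatin regulator genes, Tet2, a DNA demethylase gene, had 2 regions, and Arid1b, which encodes a subunit of a chromatin remodelling complex, had 1. De novo regions were 2.74% of this list's 146 regions. The Tet2 body region ranked 14306, 21686 and 20003 in KO and 15925, 17953 and 15336 in WT, which overlapped, and the Arid1b region was stronger in every KO library.

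Genes near a de novo region had a constant start site about as often as genes near any region. Of the 376 with a start site in the table, 262 (69.7%, interval 64.9 to 74.1) had a start inside a region called in all 12 libraries, against 69.0% of the 11465 genes with any region and 54.3% of the 70 genes with a lost region. A further 81 (21.5%) had no start in any region, against 21.4% of genes with any region. Among non-coding genes, a de novo region (chr14:115037160-115038262) lay 5.41 kb from the Mir17 hairpin, the first of the Mir17–92 cluster, and another (chr1:162215469-162216436) lay 1.38 kb from the hairpin of Mir199a-2.

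The mean strength of the de novo regions in KO and WT stimulated libraries differed by less than the spread between libraries. The median rank percentile was 35.8 ± 3.88 in KO and 36.8 ± 1.89 in WT (SD, n = 3 each), a difference of −0.96 points (two-sided exact permutation test, p = 0.9). Only 20 rearrangements exist and the smallest p they allow is 0.1, so this design cannot pass 0.05 and the p does not show that the genotypes act alike. The median interval width was 596 ± 101 bases in KO and 742 ± 40.2 bases in WT, a difference of −146 bases (exact permutation test, p = 0.1, the smallest it can give), and no KO library reached the range of the WT libraries. Other regions called in 6 of 6 stimulated libraries had median widths of 1111 ± 97.2 bases in KO and 1319 ± 66.6 bases in WT (p = 0.1 in the same exact test), and the ratio of de novo to other width was 0.534 in KO and 0.563 in WT (exact permutation test, p = 0.7). The width difference was thus not particular to the de novo regions. List length moved with genotype in the same way, at 43985 intervals in KO and 58236 in WT, and its part in the widths was not tested.

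The number of summits per region was 1.14 ± 0.0883 in KO and 1.22 ± 0.0195 in WT (exact permutation test, p = 0.3). Most regions had a single summit, 95.1%, 87.8% and 81.5% of them in KO stimulated libraries and 83.4%, 81.8% and 81.6% in WT stimulated libraries. Other regions had 1.63 summits in KO and 1.81 in WT.

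Region by region, the ranks of the genotypes were then compared for overlap. All 3 KO ranks were stronger than all WT ranks in 84 de novo regions (12.5%, interval 10.2 to 15.2), against 11.3% of the 24884 regions called in 6 of 6 stimulated libraries. All 3 KO ranks were weaker in 111 (16.5%, interval 13.9 to 19.5), against 11% of the 24884, and in 479 (71.1%) the ranks overlapped. For the gained regions with a control interval the shares were 13.6% stronger and 14.2% weaker in KO. At matched rank, between the lower and upper quartile of the de novo mean ranks, 14.6% of 336 de novo regions were stronger and 16.7% weaker in KO, against 14.8% and 11.0% of 4903 other regions. The share stronger in KO was thus near the background, and the share weaker in KO was above it in both comparisons, with no test made, since regions of 1 library are not replicates. Without KO stimulated replicate 1 the counts were 116 (17.2%) stronger and 182 (27.0%) weaker in KO, against 20.3% and 19.5% of the 24884.

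**Figure D5:**
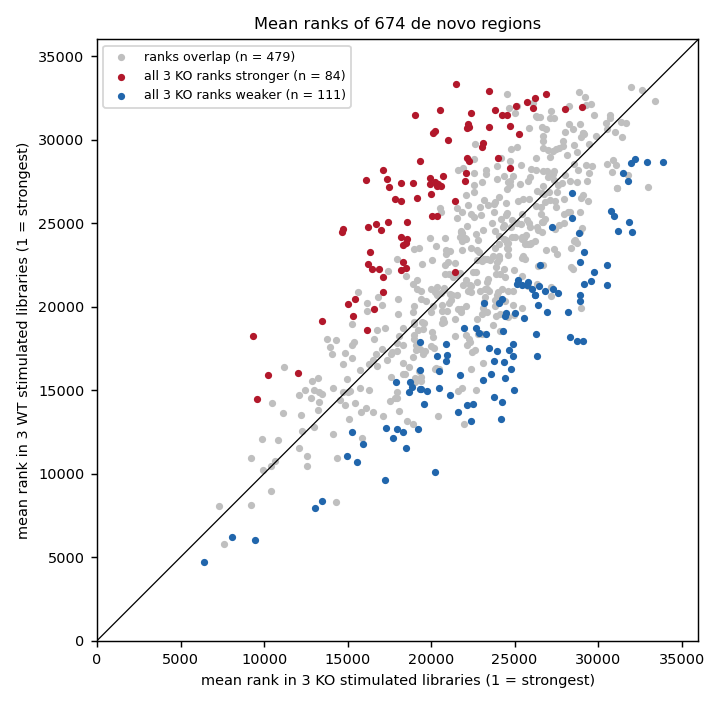
Mean rank of each of the 674 de novo regions in the 3 KO stimulated (x axis) and the 3 WT stimulated libraries (y axis), 1 strongest, with the diagonal of equal rank. Red marks the 84 regions with all 3 KO ranks stronger, blue the 111 with all 3 KO ranks weaker, and grey the 479 with overlapping ranks. The strongest regions lie at the lower left, where Snd1 stands at a mean rank of 6430 in KO and 4724 in WT.

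Where all KO ranks were stronger, the largest differences stood near Txlnb, Aven, Tbc1d32 and St6gal1. The Txlnb region (chr10:17787412-17788776), 7.44 kb from this taxilin gene, ranked 12243, 23293 and 21553 in KO, against 30589, 29324 and 34550 in WT. In the body of St6gal1, which encodes a sialyltransferase, the ranks were 23533, 22439 and 15578 in KO, against 34682, 30926 and 29756 in WT. The regions in Aven, an apoptosis inhibitor gene, and in Tbc1d32, a gene of primary cilia, had their strongest rank in KO stimulated replicate 1, at 14273 and 10273.

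Where all KO ranks were weaker, the largest differences stood near Mgat5, Tmem108, Col15a1 and Ankrd55. The Tmem108 body region (chr9:103636398-103637748) ranked 20936, 28783 and 22831 in KO, against 12720, 12457 and 14571 in WT. The region 166 kb upstream of Mgat5, a gene of N-glycan branching, ranked 30428, 33775 and 23013 in KO, against 13128, 18685 and 22021 in WT, and came close to overlapping. Col15a1, a collagen gene, had its region 29.6 kb upstream at ranks 26992, 31940 and 27229 in KO, against 19349, 16638 and 17900 in WT. These regions were named for their differences, which are therefore a description.

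Calling in both genotypes was itself uneven. The same counts over all regions are not given here, so the unevenness cannot be called particular to regions without a control interval. With no control interval, 870 regions were called in 3 of 3 KO stimulated lists and 1701 in 3 of 3 WT stimulated lists, and the 674 de novo regions are 77.5% of the first set and 39.6% of the second. Of the 1701, 406 were called in 2 of 3 KO lists, 370 in 1 and 251 in none, and 104 had no KO stimulated interval of any strength. Of the 870, 78 were called in no WT stimulated list. A further 261 regions were called in every stimulated list but that of KO stimulated replicate 1, whose equal list is its whole list. The same count was 120 for KO stimulated replicate 2, of which 88 had no interval of any strength there, 25 for KO stimulated replicate 3, of which 0 lacked one, and 20 to 29 for the WT stimulated libraries, in step with the shorter KO lists, whose part was not tested.

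Weak control intervals kept the other gained regions out of the set, and they were counted per control library. Of the 1624 gained regions, 641, 344 and 660 had an interval in the KO control libraries, against 178, 294 and 450 in the WT control libraries. The means were 548 ± 177 in KO and 307 ± 136 in WT (SD, n = 3 each), a difference of 241 with overlapping groups (two-sided exact permutation test, p = 0.2). A single control library held the interval in 107, 20 and 113 regions for the KO controls and in 7, 10 and 41 for the WT controls, which also overlapped. The full lists held 53258, 46971 and 52502 intervals in the KO controls, against 42520, 48324 and 53440 in the WT controls. The part of list length in both counts was not tested, and the same counts over all regions are not given here. The 60 regions with a weak interval in all 6 controls were the smallest class.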

How the data were processed

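The data are 12 deposited ATAC-seq peak lists of mouse splenic NK cells. Per the submitters' processing notes, the tools were MACS2 2.1.1.20160309, Bowtie2 2.3.4.1 and cutadapt 4.1, besides deepTools 3.4.2, SAMtools 1.15.1 and FastQC 0.11.9, and the build was mm10. Settings and any read shift for the cut position are not given in the sources used here. The peak names in the deposited lists show 1 round of calling per library. For each interval the authors deposited a display score, a fold over background (a linear ratio), −log10 p and −log10 q, and the offset of the summit in bases.

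From these, the rule was applied with Python 3.11.15, numpy 2.4.6, pandas 2.3.3 and scipy 1.17.1, on chromosomes 1 to 19, X and Y, with ties in −log10 q settled by −log10 p and then position. The script was tested on simulated lists. The members and gene lists were chosen with earlier results of these data known. Gene positions and promoter sequences are from RefSeq tables on GRCm38.p6; 79.9% of 21887 protein-coding genes had a start site there, and promoters were searched on both strands. A region was assigned to the nearest protein-coding gene within 50 kb. Zfp683 was not matched. Named were the 12 best mean ranks, up to 3 regions per gene list, genes with at least 3 regions, the 4 largest genotype differences each way and the 3 regions on either side of the threshold; promoters under members, Iltifb, Ets1, Satb1, Myc, miRNAs and some further list members were named after their values were seen. Exact permutation tests used libraries as replicates, and Wilson intervals cover counting error only. Alternatives were lists of 17555 intervals and full lists, ranking by fold, calls covering 50% of a region, other absence rules, other gene distances, leaving out each library, and a replicate block. Motifs under summits were planned and not run, because no genome sequence was used here. Exons, introns and other gene parts were not used, and a few listed genes are not reported here.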

Additional observations from a re-analysis of the deposited data

How the results depend on the processing

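With 17555 intervals per library the rule gave 43 regions, all of them among the 674, with 2.33% within 1 kb of a gene end, 67.4% outside gene bodies and a median width of 1190 bases. All deposited intervals gave 1144 regions, calls covering 50% of a region gave 351, and absence from the control equal lists alone gave 1624. The KO minus WT difference in median rank percentile changed sign, to 4.93 with these shorter lists (exact permutation test, p = 0.5) and to 2.39 with 50% cover (p = 0.6, same exact test). Leaving out a library loosens the rule, and doing so for each in turn gave 681 to 940 regions. Of these, 3.4% to 4.3% lay within 1 kb of a gene end and 50.7% to 52.8% outside gene bodies. The median width was 831.5 to 937 bases and the rank percentile difference −3.11 to 0.61. That difference was 0.61 without KO stimulated replicate 2 and 0.44 without WT stimulated replicate 1. The width difference stayed between −196 and −102 bases and the summit difference between −0.12 and −0.03 when libraries were left out, both below 0 as in the full set; with 50% cover the width difference was −88.3 bases (p = 0.2, same exact test). Genes were assigned to 68.5% of regions within 20 kb and 89.8% within 100 kb. The cause of these shifts was not tested. Requiring no control interval within 1 kb gave 610 regions. Ranking by fold gave the identical 674 and the same shares stronger and weaker in KO among the 24884 regions, so it was no separate check. With the replicate number as a block, the rank percentile difference of −0.96 had an exact permutation p of 1 (smallest possible 0.25). The labels do not say whether same-numbered KO and WT libraries were paired. Their deviations correlated at −0.02, 0.01 and −0.05, and those of differently numbered libraries at −0.08 to 0.11. These values cannot decide it, because ranks within a list hide any shift of a whole library. The share of regions with a motif around the summit was not run. The rank difference under all deposited intervals has no value, because those lists differ in length.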

Other observations

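In the 1144 regions that the rule gives over all deposited intervals, without lists of equal length, 3.85% lay within 1 kb of a gene end and 51.3% outside gene bodies, and all 674 de novo regions were among them. Of the 22289 regions called in 6 of 6 stimulated equal lists that had a deposited interval in all 6 controls, 60 were in no control equal list. Near Myc, 4 de novo regions had it as their nearest protein-coding gene, at 261, 736, 831 and 846 kb from its body. The last (chr15:62836680-62837627) ranked 16360, 20249 and 18389 in KO stimulated libraries, against 10535, 13436 and 13436 in WT stimulated libraries, all weaker in KO, and the nearest (chr15:62251201-62252413) ranked 16359, 19865 and 19338 in KO, against 21153, 25599 and 24689 in WT, all stronger in KO. Pmaip1 had 1 region 12.1 kb from its body that was stronger in every KO library, at ranks 14696, 17489 and 19926 in KO, against 24887, 25960 and 31991 in WT.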
